A study of Mus musculus with 11 samples.

Results

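The genes described here are 9 markers of bile duct cells and of liver progenitor cells other than keratins, namely Sox9, Sox4, Spp1, Epcam, Prom1, Cd24a, Aqp1, Cftr and Muc1, taken by name from the 36528 genes counted. They were followed across 11 RNA sequencing libraries of cell lines grown from mouse liver tumours. The tumours carried an altered TAZ or YAP protein, and the groups are TAZ-S89A with 5 libraries, YAP-5SA with 3 libraries and YAP-S127A with 3 libraries. The sample labels write the second of these as YAP-S5A. TAZ (gene Wwtr1) and YAP (gene Yap1) are coactivators of the TEAD transcription factors, and in these mutants serines that the Hippo kinases phosphorylate are replaced by alanine. TAZ-S89A and YAP-S127A are each changed at the site in their name, and YAP-5SA at that YAP site and others. Strain, age, sex and the way the mutant was delivered to the liver were not given in the sources used here, and no line without a mutant was analysed here. Whether a group's libraries stem from different tumours, lines or cultures is not stated in the labels. A p-value here is therefore a measure of the spread among these libraries only, part of which may be technical, and the mutant and the identity of the line cannot be told apart.

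Bile ducts are lined by cholangiocytes, which arise from the same embryonic precursor as hepatocytes, the hepatoblast. After chronic injury, duct-like cells with progenitor properties spread through the liver in what is called a ductular reaction, and hepatocytes with high YAP activity can take on duct markers. Sox9 and Sox4 are transcription factors of duct formation, Spp1 encodes the secreted ligand osteopontin, and Epcam, Prom1, Cd24a and Muc1 encode surface proteins. Aqp1 and Cftr encode a water channel and a chloride and bicarbonate channel that serve bile secretion.

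The libraries held between 20071144 and 49159713 counts. The lines had little hepatocyte RNA. The 10 hepatocyte genes examined summed to 1.86 to 2.84 CPM (counts scaled to a common library size) in TAZ-S89A, 31.4 to 47.3 CPM in YAP-5SA and 20.5 to 25.2 CPM in YAP-S127A, and 3 of them had no count in any YAP-5SA library and 2 in any YAP-S127A library. The 8 cholangiocyte genes examined, of which Sox9, Epcam and Cftr are members here, summed to 284 to 345 CPM in TAZ-S89A, mostly from Slc4a2, 2700 to 4122 CPM in YAP-5SA, mostly from Krt7 and Krt19, and 312 to 338 CPM in YAP-S127A. The 7 stellate cell and fibroblast genes summed to 314 to 413 CPM in TAZ-S89A, mostly from Pdgfrb, and to 268 to 370 CPM in YAP-5SA and 4213 to 4568 CPM in YAP-S127A, mostly from Col1a1. The 4 mesothelial genes summed to 979 to 1749 CPM in TAZ-S89A, 1885 to 2032 CPM in YAP-5SA and 725 to 761 CPM in YAP-S127A, nearly all from Msln, which averaged 1367 CPM in TAZ-S89A, 1909 CPM in YAP-5SA and 742 CPM in YAP-S127A. In bulk RNA such as this, fewer cells of a type and less RNA per cell cannot be told apart.

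No group was highest for all of the markers. The TAZ-S89A lines had the highest Spp1, Muc1 and Cftr, the YAP-5SA lines the highest Cd24a, and the YAP-S127A lines the highest Aqp1 and Prom1. Sox9 was low in YAP-5SA and at overlapping levels in the other groups, Sox4 varied least, and Epcam was near the limit of detection in every library. Of the 9 markers, 8 passed the filter on low counts, and Epcam did not.

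**Figure D1:**
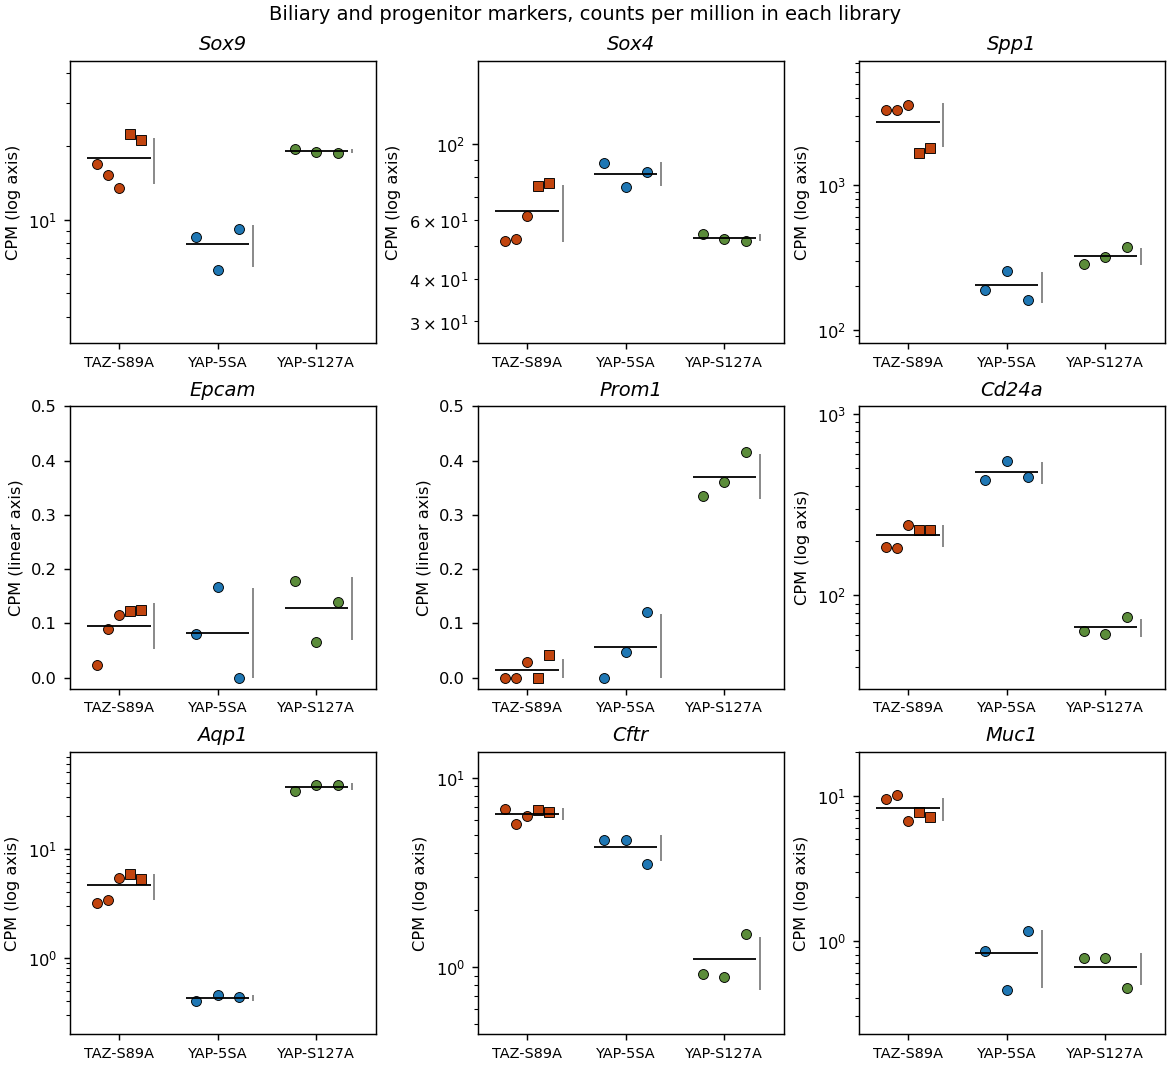
The 9 markers by library, in CPM on a log axis (linear for Epcam and Prom1), with TAZ-S89A left, YAP-5SA in the middle and YAP-S127A right; points are libraries, squares are TAZ-S89A replicates 4 and 5, the horizontal line is the group mean and the grey bar spans 1 SD to either side. Spp1 and Muc1 stand apart in TAZ-S89A, Cd24a steps down through YAP-5SA, TAZ-S89A and YAP-S127A, and Aqp1 steps down through YAP-S127A, TAZ-S89A and YAP-5SA.

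The threshold for a call was 0.05, applied to p-values from edgeR's quasi-likelihood test after Benjamini-Hochberg adjustment over all 18224 genes that passed the filter. Prom1 is left out of the counts and medians that follow, because it passed the filter through YAP-S127A alone. In TAZ-S89A against YAP-5SA, 5 of the other 7 tested markers were higher and 2 lower, against a background of 57.9% of all tested genes called, 26.9% higher and 31.0% lower. Their median log2 fold change was 1.16, against -0.04 over all tested genes. In TAZ-S89A against YAP-S127A, 4 were higher and 1 lower, with 57.6% of all tested genes called, 27.0% higher and 30.6% lower, and medians of 1.68 for the markers and -0.03 for all tested genes. In YAP-5SA against YAP-S127A, 3 were higher and 2 lower, with 55.2% of all tested genes called, 28.2% higher and 27.0% lower, and medians of 0.31 and 0.01. With Prom1 the medians were 0.87, 0.97 and -0.19. So many genes were called in each comparison that the number of markers called says little in itself, and their levels and the sizes of their differences follow.

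Sox9, on chromosome 11 (112782210 to 112787757 in GRCm38, Entrez gene 20682), is required for the timing of bile duct formation and is the usual marker of duct and progenitor cells. Its level was 16.9, 15.2, 13.5, 22.4 and 21.3 CPM in TAZ-S89A, 8.47, 6.24 and 9.20 CPM in YAP-5SA and 19.5, 19.0 and 18.8 CPM in YAP-S127A. All 3 YAP-5SA libraries lay below every library of the other groups. Against YAP-S127A, TAZ-S89A replicates 1 to 3 were all lower, while replicates 4 and 5, which belong to a second sample series, were both higher. The log2 fold change of TAZ-S89A against YAP-5SA was 1.16 (SE 0.19, adjusted p = 0.00011), and that of YAP-5SA against YAP-S127A was -1.26 (SE 0.20, adjusted p = 0.000125). TAZ-S89A against YAP-S127A gave -0.10 with a 95% interval of -0.48 to 0.28 (adjusted p = 0.65), so that a difference of either sign within that interval could not be told from none. The sign of this last value turned to 0.042 (adjusted p = 0.85) without TAZ-S89A replicate 3. In edgeR it was -0.33 (adjusted p = 0.0535) with the sample series as a covariate and -0.34 (adjusted p = 0.065) without the second series, neither called.

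Sox4, a related SOX factor that acts with Sox9 in duct development (chromosome 13, 28948919 to 28953699, gene 20677), differed less between the groups. It reached 51.8, 52.7, 61.4, 75.6 and 76.7 CPM in TAZ-S89A, 88.1, 74.8 and 83.0 CPM in YAP-5SA and 54.4, 52.7 and 51.9 CPM in YAP-S127A. The YAP-5SA libraries were all above those of YAP-S127A, and the TAZ-S89A libraries overlapped both groups. YAP-5SA exceeded YAP-S127A by 0.63 on the log2 scale (SE 0.17, adjusted p = 0.00589). TAZ-S89A against YAP-5SA gave -0.37 (SE 0.15, adjusted p = 0.048), a call lost in 16 of the 22 alternatives, where the adjusted p reached 0.178. TAZ-S89A against YAP-S127A gave 0.26 with a 95% interval of -0.06 to 0.59 (adjusted p = 0.154). YAP-5SA thus had the lowest mean Sox9 and the highest mean Sox4. The annotation places a long non-coding gene, Gm46405, over Sox4 and a pseudogene, Gm15595, over Cftr. Neither has a row of its own in the tables under that identifier, and with the strand setting unknown their reads cannot be told from those of Sox4 and Cftr.

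Spp1 encodes osteopontin, a secreted phosphoprotein made by cholangiocytes and by ductular cells, and also by macrophages (chromosome 5, 104435111 to 104441053, gene 20750). It was far more abundant in TAZ-S89A than in the YAP groups, at 3315, 3307, 3586, 1669 and 1804 CPM, against 189, 256 and 162 CPM in YAP-5SA and 285, 320 and 372 CPM in YAP-S127A. The lowest TAZ-S89A library was above the highest library of either YAP group, and among all genes ranked by length-scaled level Spp1 held places 20 to 24 in TAZ-S89A, 722 to 883 in YAP-5SA and 443 to 492 in YAP-S127A. It took up 0.202% to 0.351% of all counts in the TAZ-S89A libraries. The log2 fold change of TAZ-S89A was 3.76 (SE 0.36, adjusted p = 7.18e-07) against YAP-5SA, a 13.5-fold difference, and 3.07 (SE 0.35, adjusted p = 4.29e-06) against YAP-S127A, an 8.40-fold difference. The YAP groups did not overlap, with a log2 fold change of -0.69 for YAP-5SA against YAP-S127A (95% interval -1.41 to 0.04, adjusted p = 0.099). That difference was not called with the spread shared by all 11 libraries, and was called when only the YAP groups were fitted (-0.70, adjusted p = 0.00787) or without the second TAZ-S89A sample series (-0.72, adjusted p = 0.0042). Of the 6 macrophage and leukocyte genes examined, 3 stayed under 1 CPM in every TAZ-S89A library and Adgre1 had no count there. Their sum was 27.5 to 37.0 CPM in TAZ-S89A, 84.6 to 96.7 CPM in YAP-5SA and 23.6 to 28.3 CPM in YAP-S127A, with Cd14 the largest part at 21.9 CPM on average in TAZ-S89A, 37.2 CPM in YAP-5SA and 10.8 CPM in YAP-S127A. Their part in the Spp1 level was not tested.

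Muc1, a transmembrane mucin of the apical surface of ducts (chromosome 3, 89229056 to 89233381, gene 17829), had a pattern like that of Spp1 at a much lower level. It measured 9.58, 10.1, 6.67, 7.71 and 7.18 CPM in TAZ-S89A, 0.855, 0.454 and 1.16 CPM in YAP-5SA and 0.758, 0.754 and 0.472 CPM in YAP-S127A. Every TAZ-S89A library was above every YAP library, and the YAP groups overlapped. The log2 fold change was 3.32 (SE 0.29, adjusted p = 2.47e-07) against YAP-5SA and 3.63 (SE 0.30, adjusted p = 1.66e-07) against YAP-S127A. YAP-5SA against YAP-S127A gave 0.31 (95% interval -0.41 to 1.04, adjusted p = 0.454), on 17 to 48 counts per library, and -0.026 (adjusted p = 0.96) without YAP-5SA replicate 3. Once each gene was centred on its own mean over the 11 libraries in log2 CPM, Spp1 and Muc1 differed by a root mean square of 0.66. This was the smallest value among the 28 pairs of the 8 tested markers, and the largest was 3.36 for Cd24a and Aqp1.

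The 250 bases before the start of the Spp1, Muc1 and Aqp1 transcripts are shown because Spp1 and Muc1 were the closest pair and Aqp1 was the marker farthest from both. They come from the RefSeq promoter table of GRCm38.p6 and read 5′ to 3′ along the strand of the gene. Capitals mark matches, on either strand, to the letters searched, which were GGAATG for TEAD, TGANTCA for AP-1, TGGGAA for the Notch factor RBPJ and GTTAAT for HNF1. Spp1 is at chr5:104434861-104435110 on the plus strand, Muc1 at chr3:89228806-89229055 on the plus strand and Aqp1 at chr6:55336049-55336298 on the plus strand.
Spp1: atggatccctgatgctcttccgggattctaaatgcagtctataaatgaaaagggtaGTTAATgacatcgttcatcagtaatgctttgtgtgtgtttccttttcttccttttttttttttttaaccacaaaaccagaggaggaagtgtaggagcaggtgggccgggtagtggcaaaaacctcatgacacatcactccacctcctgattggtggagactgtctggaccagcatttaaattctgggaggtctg
Muc1: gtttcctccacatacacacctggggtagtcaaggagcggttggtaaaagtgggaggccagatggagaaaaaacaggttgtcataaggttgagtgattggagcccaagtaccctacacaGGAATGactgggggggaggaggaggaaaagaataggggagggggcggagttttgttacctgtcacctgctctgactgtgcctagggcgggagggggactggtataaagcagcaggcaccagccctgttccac
Aqp1: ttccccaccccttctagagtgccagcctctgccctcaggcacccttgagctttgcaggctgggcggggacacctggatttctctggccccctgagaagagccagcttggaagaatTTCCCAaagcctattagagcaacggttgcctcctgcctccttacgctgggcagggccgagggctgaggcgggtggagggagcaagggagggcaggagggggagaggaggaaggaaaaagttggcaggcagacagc

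In these windows Spp1 held the HNF1 letters at positions -194 to -189 relative to the start, Muc1 the TEAD letters at -132 to -127, and Aqp1 the RBPJ letters on the opposite strand at -135 to -130. Among all 32851 windows of this length in the table, the TEAD letters were found in 12.6%, the AP-1 letters in 6.75%, the RBPJ letters in 21.6% and the HNF1 letters in 6.43%. The table holds 9 windows for 7 of the 9 markers. Sox4 held a TEAD and an RBPJ match, the Prom1 windows held AP-1 and RBPJ matches, and Cftr, Epcam and the second Spp1 window held none of the 4. No match overlapped another. The bases G and C made up from 35.6% of the second Spp1 window to 76.4% of the Cftr window. A match describes letters in a window and is no evidence that a factor binds there.

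Cd24a encodes a small glycoprotein anchored in the membrane by a lipid and marks hepatic progenitors and duct cells in mice (chromosome 10, 43579169 to 43584265, gene 12484). Its level was 185, 182, 245, 229 and 230 CPM in TAZ-S89A, 429, 547 and 449.5 CPM in YAP-5SA and 63.2, 61.2 and 75.5 CPM in YAP-S127A. The 3 groups were fully separated, with YAP-5SA on top and YAP-S127A lowest. The log2 fold change was -1.15 (SE 0.17, adjusted p = 4.41e-05) for TAZ-S89A against YAP-5SA, 1.68 (SE 0.18, adjusted p = 3.03e-06) for TAZ-S89A against YAP-S127A and 2.83 (SE 0.21, adjusted p = 5.77e-08) for YAP-5SA against YAP-S127A. Cd24a has closely similar copies elsewhere in the mouse genome, and how the counting of uniquely aligned reads treated them is not stated, so its level is uncertain.

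Prom1 encodes prominin, also called CD133, a protein of membrane protrusions used to sort liver progenitors (chromosome 5, 43993621 to 44102047, gene 19126). Counts were 0, 0, 1, 0 and 1 in TAZ-S89A, 0, 2 and 5 in YAP-5SA and 15, 11 and 15 in YAP-S127A. The YAP-S127A libraries, at 0.334, 0.361 and 0.417 CPM, were all above the others, and the TAZ-S89A and YAP-5SA libraries overlapped. With 2 counts in TAZ-S89A and 41 in YAP-S127A over the groups, the pooled TAZ-S89A level was 0.0319 of that in YAP-S127A, with an exact 95% interval of 0.00374 to 0.123 that covers counting error only. The YAP-5SA lines held 7 counts. Prom1 passed the filter on low counts through its YAP-S127A libraries alone, so no test against that group is given for it. TAZ-S89A against YAP-5SA rested on 2 and 7 counts, a ratio of 0.202 with an interval of 0.0205 to 1.06 (adjusted p = 0.116 in edgeR). It was called without YAP-5SA replicate 1, the library with a count of 0 (adjusted p = 0.0388). Even the highest library held less than 1 CPM of Prom1, so these are differences among traces of the transcript.

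Epcam encodes an epithelial adhesion molecule that is a standard surface marker of cholangiocytes and oval cells (chromosome 17, 87635979 to 87651127, gene 17075). Counts were 1, 4, 4, 3 and 3 in TAZ-S89A, 3, 7 and 0 in YAP-5SA and 8, 2 and 5 in YAP-S127A. The pooled counts of 15, 10 and 15 correspond to means of 0.0952 CPM in TAZ-S89A, 0.0825 CPM in YAP-5SA and 0.128 CPM in YAP-S127A. The 3 groups overlapped and the gene was below the filter on low counts, so it was not tested. No difference was detectable at this depth, at which a count of 0 allows up to 3 counts in a library.

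Aqp1, the water channel of the duct membrane (chromosome 6, 55336299 to 55348555, gene 11826), spanned the widest range of the markers above 1 CPM. It measured 3.18, 3.41, 5.34, 5.91 and 5.30 CPM in TAZ-S89A, 0.401, 0.454 and 0.436 CPM in YAP-5SA and 34.1, 38.6 and 38.5 CPM in YAP-S127A. The groups were fully separated, in the opposite order to Cd24a. The log2 fold change was 3.40 (SE 0.26, adjusted p = 6.75e-08) for TAZ-S89A against YAP-5SA, -3.01 (SE 0.19, adjusted p = 8.82e-09) for TAZ-S89A against YAP-S127A and -6.42 (SE 0.28, adjusted p = 5.17e-10) for YAP-5SA against YAP-S127A, an 85.4-fold lower level in YAP-5SA. Aqp1 is also a gene of endothelial and mesothelial cells. The 6 endothelial genes examined summed to 0.377 to 1.14 CPM in TAZ-S89A, 1.22 to 1.45 CPM in YAP-5SA and 1.94 to 2.56 CPM in YAP-S127A, so that the sum was also highest in YAP-S127A. Kdr averaged 0.101 CPM in TAZ-S89A, 0.240 CPM in YAP-5SA and 1.25 CPM in YAP-S127A, and Tek 0.0305 CPM in TAZ-S89A, 0.0581 CPM in YAP-5SA and 0.354 CPM in YAP-S127A. Pecam1 averaged 0.0779 CPM in TAZ-S89A, 0.360 CPM in YAP-5SA and 0.137 CPM in YAP-S127A. Cdh5 was lowest in YAP-S127A, at 0.0791 CPM in TAZ-S89A, 0.122 CPM in YAP-5SA and 0.00926 CPM in YAP-S127A. Vwf averaged 0.0214 CPM in TAZ-S89A, 0.198 CPM in YAP-5SA and 0.147 CPM in YAP-S127A. Stab2 averaged 0.366 CPM in TAZ-S89A, 0.340 CPM in YAP-5SA and 0.337 CPM in YAP-S127A. The stellate cell and fibroblast sum given above was highest in YAP-S127A as well, while the mesothelial sum was lowest there. The part of any of these cell types in the Aqp1 level was not tested.

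Cftr, the chloride and bicarbonate channel that alkalinises bile (chromosome 6, 18170687 to 18322770, gene 12638), was highest in TAZ-S89A and lowest in YAP-S127A. It measured 6.84, 5.66, 6.26, 6.77 and 6.55 CPM in TAZ-S89A, 4.70, 4.68 and 3.51 CPM in YAP-5SA and 0.914, 0.886 and 1.50 CPM in YAP-S127A. No group overlapped another. TAZ-S89A exceeded YAP-S127A by 2.54 on the log2 scale (SE 0.21, adjusted p = 2.03e-07), and YAP-5SA exceeded it by 1.96 (SE 0.22, adjusted p = 5.3e-06). The log2 fold change of TAZ-S89A against YAP-5SA was 0.58 (SE 0.18, adjusted p = 0.0153), which was not called without YAP-5SA replicate 3 (0.45, adjusted p = 0.0843). Aqp1 and Cftr thus ran in different orders over the groups, since Aqp1 was highest and Cftr lowest in YAP-S127A.

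**Figure D2:**
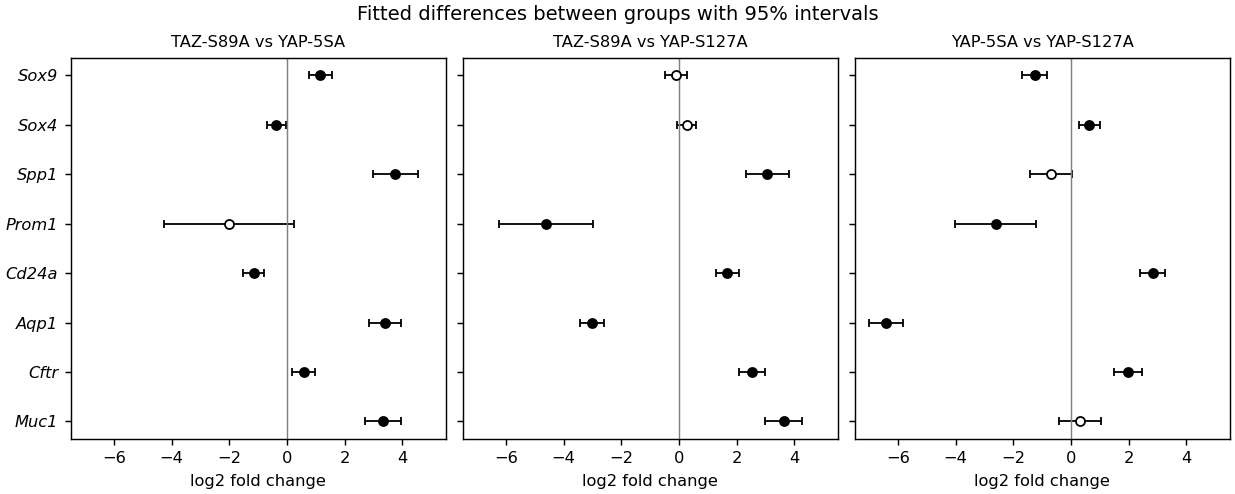
Log2 fold changes of the 8 tested markers in the 3 comparisons, as points with 95% intervals from edgeR's quasi-likelihood fit; filled points passed an adjusted p of 0.05 and open points did not. Values right of 0 are higher in the group named first, and Aqp1 runs from 3.40 to -6.42. Prom1 passed the filter through YAP-S127A alone, so its filled points against that group are not read as results. The Prom1 values rest on at most 41 counts a group and depend on the fit's handling of near-zero counts.

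Between genes, levels were compared per length, in the authors' size-factor-adjusted RPKM (nRPKM). In TAZ-S89A the mean was 1341 nRPKM for Spp1, followed by Cd24a at 97.0, Sox4 at 17.7, Sox9 at 3.56, Muc1 at 3.01, Aqp1 at 1.39 and Cftr at 0.782. Sox9 and Muc1 overlapped over the 5 libraries. In YAP-5SA Cd24a led at 213 nRPKM, before Spp1 at 99.6, Sox4 at 22.5, Sox9 at 1.57, Cftr at 0.519, Muc1 at 0.299 and Aqp1 at 0.127. In YAP-S127A Spp1 led at 161 nRPKM, before Cd24a at 30.1, Sox4 at 14.7, Aqp1 at 11.01, Sox9 at 3.78, Muc1 at 0.242 and Cftr at 0.133, of which Muc1 and Cftr overlapped. Epcam and Prom1 were last in every group, at 0.0544 nRPKM or less. Spp1, Cd24a and Sox4 therefore held the top 3 places in all groups, with Spp1 and Cd24a changing places in YAP-5SA. The place of Aqp1 differed most between groups, just below Sox4 in YAP-S127A and below Muc1 in YAP-5SA.

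**Figure D3:**
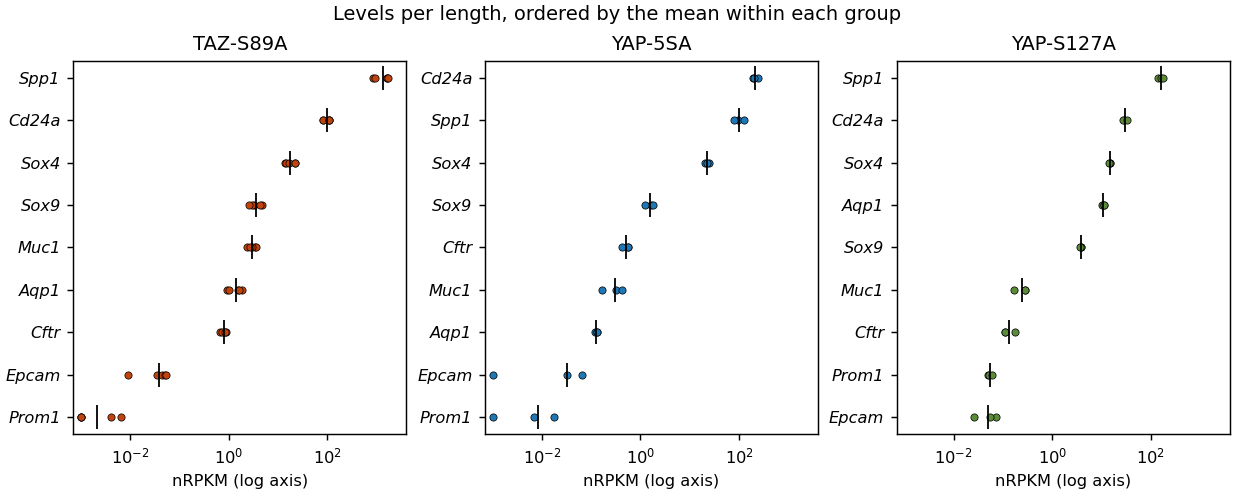
Level per length of the 9 markers within each group, in nRPKM on a log axis; points are libraries, vertical ticks are group means, and libraries with no count are drawn at 0.001. Spp1 leads in TAZ-S89A (1341) and YAP-S127A (161), Cd24a leads in YAP-5SA (213), and Epcam and Prom1 sit at the bottom of each panel.

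Within TAZ-S89A, replicates 4 and 5 carry sample identifiers from a second series and differed from replicates 1 to 3 in many genes. Spp1 averaged 1736 CPM in these 2 libraries and 3403 CPM in replicates 1 to 3, a ratio of 0.51. Sox9 averaged 21.8 CPM against 15.2 CPM, and Sox4 76.2 CPM against 55.3 CPM. For these 3 genes the 2 sets of libraries did not overlap, while for Cd24a, Aqp1, Cftr and Muc1 they did. Of all 13933 tested genes with at least 1 CPM on average in either set, 61.1% did not overlap, so nothing is read from the 3 of 7 markers that did not. The labels do not say what the second series stands for, and it holds TAZ-S89A libraries alone. Within the first series alone, the same number of markers was called in each direction in both comparisons of TAZ-S89A, 5 higher and 2 lower against YAP-5SA, and, with Prom1 counted, 4 higher and 2 lower against YAP-S127A. In that series the log2 fold change of TAZ-S89A against YAP-5SA was 0.95 for Sox9 (adjusted p = 0.000177), -0.55 for Sox4 (adjusted p = 0.00149) and 4.09 for Spp1 (adjusted p = 4.71e-09). YAP-5SA against YAP-S127A had 3 markers higher and, with Prom1 counted, 4 lower in it, with Spp1 the added call. Some libraries of a group were close to each other, with a chi-square per degree of freedom over genes of 2.02 between TAZ-S89A replicates 4 and 5, 5.67 between TAZ-S89A replicates 1 and 2 and 6.48 between YAP-S127A replicates 1 and 2, against 15.7 to 227 for the other pairs. None of these was within sampling noise, and all were kept as separate libraries.

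Other genes of the duct programme were examined as lists. Of all tested genes, 26.9% were higher and 31.0% lower in TAZ-S89A against YAP-5SA. The shares were 27.0% and 30.6% in TAZ-S89A against YAP-S127A, and 28.2% and 27.0% in YAP-5SA against YAP-S127A. The median log2 fold changes of all tested genes in these comparisons were -0.04, -0.03 and 0.01. Counts of called genes near these shares say little in themselves. The 5 biliary keratins, filament proteins of duct epithelium, were all lower in TAZ-S89A than in YAP-5SA, with a median log2 fold change of -7.54 against -0.04 over all tested genes. Krt7 averaged 1.41 ± 0.673 CPM in TAZ-S89A, 1743 ± 434 CPM in YAP-5SA and 102 ± 14.4 CPM in YAP-S127A (SD, n = 5, 3 and 3, as for the means that follow), and Krt19 averaged 7.38 ± 2.76 CPM in TAZ-S89A, 1371 ± 340 CPM in YAP-5SA and 55.9 ± 8.47 CPM in YAP-S127A. Against YAP-S127A, 4 of the keratins were lower in TAZ-S89A and 1, Krt18, was higher, and in YAP-5SA 4 were higher than in YAP-S127A and none lower. The medians were -2.93 and 4.10, against -0.03 and 0.01 over all tested genes. Krt23 had no count in TAZ-S89A, at least 426-fold lower than in YAP-5SA and at least 299-fold lower than in YAP-S127A when the group is set to a floor of 3 counts. Krt8 was also lower in TAZ-S89A than in YAP-5SA, with a log2 fold change of -6.63 and an adjusted p of 6.43e-10 in edgeR. Krt7, Krt19, Krt8 and Krt23 thus had their lowest means in TAZ-S89A, where Spp1, Muc1 and Cftr were highest, and Krt18 had its lowest in YAP-S127A. Krt8 and Krt18 have processed copies in the genome, so their counts are uncertain.

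Of the 8 transcription factors of duct fate listed, 5 were tested, and 3 were higher and 2 lower in TAZ-S89A against each YAP group. Elf3, an epithelial ETS factor, averaged 3.87 ± 0.852 CPM in TAZ-S89A, 1.79 ± 0.312 CPM in YAP-5SA and 0.415 ± 0.0127 CPM in YAP-S127A. Its relative Ehf had 366 counts in TAZ-S89A, 7 in YAP-5SA and 1 in YAP-S127A. The TAZ-S89A level of Ehf was 239 times that in YAP-S127A, with a counting interval of 42.7 to 9482. Ehf passed the filter on low counts through TAZ-S89A alone, so this ratio describes counts and is not read as a test. The counts and medians of the list include it. Foxa2, a pioneer factor of the liver, went the other way, at 0.362 ± 0.228 CPM in TAZ-S89A, 24.1 ± 1.91 CPM in YAP-5SA and 8.13 ± 0.491 CPM in YAP-S127A, and Hes1, the Notch target of the list, was also lower in TAZ-S89A against both (log2 fold changes -0.76 and -1.25). YAP-5SA against YAP-S127A had 3 factors higher, 1 lower and 1 not called. The median log2 fold changes of the 5 factors were 1.10 for TAZ-S89A against YAP-5SA, 1.68 for TAZ-S89A against YAP-S127A and 1.56 for YAP-5SA against YAP-S127A.

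The transport and cilium genes of ducts were split. In TAZ-S89A, 4 of the 8 tested were higher and 4 lower than in YAP-5SA, and 4 were higher and 3 lower than in YAP-S127A. In YAP-5SA against YAP-S127A, 2 were higher, 2 lower and 4 not called. The median log2 fold changes in these comparisons were 0.08, 0.13 and 0.15. Pkhd1, the fibrocystin gene mutated in recessive polycystic kidney and liver disease, was lowest in YAP-5SA, at 132 ± 28.6 CPM in TAZ-S89A, 15.1 ± 2.03 CPM in YAP-5SA and 205 ± 23.7 CPM in YAP-S127A, and overlaps the non-coding gene 4930486I03Rik. Pkd2, a cation channel of cilia, followed the same order at 100.5 ± 18.4 CPM in TAZ-S89A, 53.3 ± 10.04 CPM in YAP-5SA and 139 ± 8.48 CPM in YAP-S127A. Ano1, a calcium-activated chloride channel, and Bicc1, an RNA-binding protein of cystic disease, were highest in YAP-5SA. Ano1 averaged 93.8 ± 10.4 CPM in TAZ-S89A, 170 ± 22.1 CPM in YAP-5SA and 53.1 ± 4.16 CPM in YAP-S127A, and Bicc1 141 ± 12.8 CPM in TAZ-S89A, 228 ± 22.2 CPM in YAP-5SA and 85.3 ± 5.21 CPM in YAP-S127A. Aqp1 shared its order over the groups with Pkhd1 and Pkd2, and Cd24a shared its order with Ano1 and Bicc1.

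Of 10 other progenitor and oval cell markers, 9 were tested. Of these, 4 were higher and 3 lower in TAZ-S89A against YAP-5SA, 1 was higher and 3 lower against YAP-S127A, and 4 were higher and 3 lower in YAP-5SA against YAP-S127A. The median log2 fold changes in these comparisons were 0.46, -0.24 and -0.09. Lgr5, a Wnt-responsive receptor of injured liver and of stem cells, averaged 15.6 ± 5.01 CPM in TAZ-S89A, 1.79 ± 0.484 CPM in YAP-5SA and 0.0425 ± 0.0213 CPM in YAP-S127A. Alcam, an adhesion molecule of hepatic progenitors, averaged 10.7 ± 3.33 CPM in TAZ-S89A, 4.47 ± 0.414 CPM in YAP-5SA and 83.7 ± 5.03 CPM in YAP-S127A. Foxl1, which marks progenitors of the injured mouse liver, had 3 counts over TAZ-S89A, 7 over YAP-5SA and 447 over YAP-S127A. Its TAZ-S89A level was 0.00439 of that in YAP-S127A (counting interval 0.000902 to 0.0129). Foxl1 passed the filter on low counts through YAP-S127A alone, so this ratio describes counts and is not read as a test. The counts and medians of the list include Foxl1. The markers of this list therefore did not share a highest group, as was seen for the 9 markers above.

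In the Notch pathway, through which Jag1 on portal cells induces ducts, 4 of 5 listed genes were tested. Of these, 3 were higher in TAZ-S89A than in YAP-5SA and none lower, 2 were higher and 2 lower than in YAP-S127A, and 2 were lower in YAP-5SA than in YAP-S127A and none higher. The median log2 fold changes in these comparisons were 1.31, -0.12 and -1.25. The ligand gene Jag1 averaged 51.0 ± 7.01 CPM in TAZ-S89A, 22.7 ± 3.83 CPM in YAP-5SA and 113 ± 5.17 CPM in YAP-S127A. Rbpj, the DNA-binding factor of the pathway, averaged 22.1 ± 8.01 CPM in TAZ-S89A, 7.10 ± 0.957 CPM in YAP-5SA and 35.9 ± 3.42 CPM in YAP-S127A. Its target Hey1 averaged 2.84 ± 0.803 CPM in TAZ-S89A, 1.02 ± 0.367 CPM in YAP-5SA and 1.16 ± 0.212 CPM in YAP-S127A. The receptor gene Notch2 was called only in TAZ-S89A against YAP-S127A (log2 fold change 0.46, adjusted p = 0.0314 in edgeR), a call lost in 7 of 22 alternatives. Like Sox9, Jag1 and Rbpj were lowest in YAP-5SA.

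Osteopontin binds CD44 and integrins, and all 8 receptor genes listed were tested. TAZ-S89A, the group with the most Spp1, had 4 receptor genes higher and 2 lower than YAP-5SA, and 1 higher and 2 lower than YAP-S127A, while YAP-5SA had 1 higher and 4 lower than YAP-S127A. The median log2 fold changes were 0.77 for TAZ-S89A against YAP-5SA, -0.0042 for TAZ-S89A against YAP-S127A and -0.77 for YAP-5SA against YAP-S127A. Itgb5 averaged 133 ± 11.3 CPM in TAZ-S89A, 44.5 ± 2.97 CPM in YAP-5SA and 83.2 ± 2.71 CPM in YAP-S127A, the receptor gene that was higher in TAZ-S89A against both. Itga5 averaged 232 ± 23.5 CPM in TAZ-S89A, 78.3 ± 12.1 CPM in YAP-5SA and 183 ± 8.51 CPM in YAP-S127A. Itga9 averaged 2.75 ± 0.380 CPM in TAZ-S89A, 0.107 ± 0.0750 CPM in YAP-5SA and 6.08 ± 0.679 CPM in YAP-S127A. Itga4 had no count in TAZ-S89A, at least 82.8-fold lower than in YAP-5SA and at least 364-fold lower than in YAP-S127A at the floor of 3 counts, and it overlaps the tested gene Cerkl. Cd44, Itgav and Itgb1 were not called between TAZ-S89A and YAP-S127A.

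Among the 12 paralogs listed, 6 were tested, of which 2 were higher and 2 lower in TAZ-S89A against YAP-5SA, 3 higher and 2 lower against YAP-S127A, and 4 higher and 2 lower in YAP-5SA against YAP-S127A. Sox11, the closest relative of Sox4, averaged 87.6 ± 13.1 CPM in TAZ-S89A, 0.996 ± 0.139 CPM in YAP-5SA and 4.31 ± 0.529 CPM in YAP-S127A. Its libraries did not overlap between groups, whereas those of Sox4 in TAZ-S89A overlapped both YAP groups. Aqp5, a water channel of secretory glands that overlaps the non-coding gene Gm34765, averaged 29.5 ± 7.62 CPM in TAZ-S89A, 38.5 ± 9.68 CPM in YAP-5SA and 0.0995 ± 0.0110 CPM in YAP-S127A, and so was almost absent from YAP-S127A, where Aqp1 was highest. Aqp8, a channel of hepatocyte membranes, averaged 0.0511 ± 0.0374 CPM in TAZ-S89A, 15.6 ± 6.49 CPM in YAP-5SA and 0.756 ± 0.620 CPM in YAP-S127A. The median log2 fold changes of the 6 paralogs were -0.16 for TAZ-S89A against YAP-5SA, 1.70 for TAZ-S89A against YAP-S127A and 3.51 for YAP-5SA against YAP-S127A, and the last 2 became 1.74 and 3.63 when genes with 3 or fewer counts in a group were set at their bounds.

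**Figure D4:**
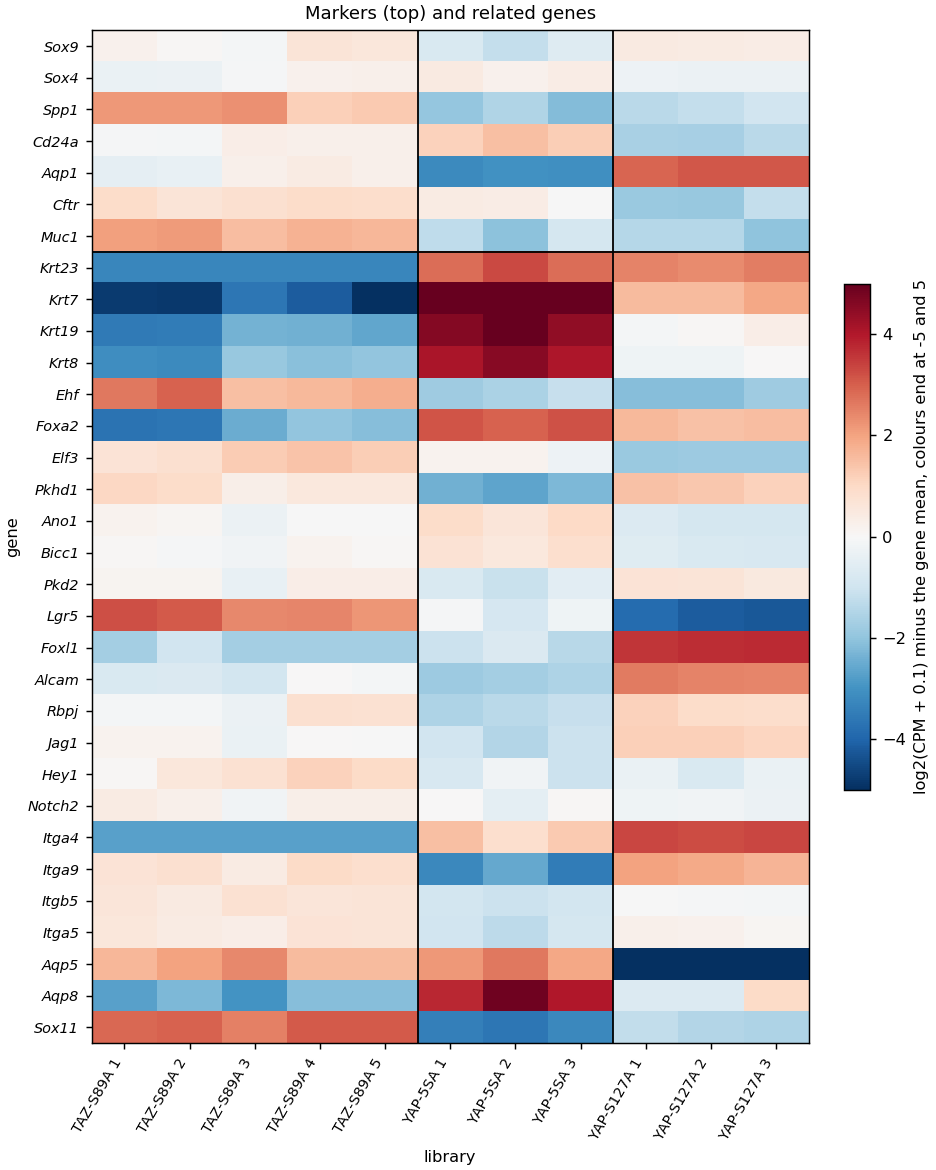
Each row is a gene and each column a library, coloured by log2(CPM + 0.1) minus the mean of the gene over the 11 libraries, with the colours ending at -5 and 5; TAZ-S89A is left, YAP-5SA in the middle and YAP-S127A right, and 7 markers are above the horizontal line. Spp1 and Muc1 are red in TAZ-S89A, where Krt7, Krt19 and Krt8 are blue; Prom1 and Epcam are left out because of their low counts.

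For each marker with at least 1 CPM in at least 3 libraries, the genes with the most similar profile were sought in a set of 11969 genes. The measure was the root mean square difference of the centred log2 CPM over the 11 libraries. Sox9 was nearest to Dpp9 and Prkcd (0.10 each, with Sox9 itself varying by 0.58 around its mean), and Sox4 to Epn2 (0.08) and Elk3 (0.09). Spp1 was nearest to Il13ra1 (0.29) and Slc40a1 (0.38), against a spread of 1.73 of its own. Muc1 was nearest to Plekhs1 (0.26) and Otx1 (0.35), Cd24a to Entpd5 (0.13) and Tmem71 (0.16), Cftr to Sesn3 (0.14) and Mia2 (0.21), and Aqp1 to P4ha3 (0.35) and Egr2 (0.36). No marker was among the 2 nearest genes of another. The 11 libraries fall into 3 groups, so these values describe mainly how alike the genes are in their 3 group levels.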

How the data were processed

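PolyA RNA of 11 cell line libraries was extracted with a Qiagen kit, per the labels. The authors deposited a count of uniquely aligning reads for each Entrez gene and an nRPKM, an RPKM adjusted by a size factor, per the file headers. Reads were aligned with GSNAP to GRCm38, per the submitters' processing notes. The counter, annotation, gene lengths and strand setting were not given in the sources used here. RefSeq symbols matched 31049 of 36528 IDs, and the 5479 others, with 2.91% of counts, stayed in the totals.

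Counts were tested with edgeR 4.0.16 (R 4.3.3): 18224 genes passed filterByExpr and 18304 did not, TMM factors scaled the libraries, and a robust quasi-likelihood model with 3 groups was fitted to all 11 libraries. The shared spread covers unlike groups, with biological coefficients of variation of 0.246 in TAZ-S89A, 0.174 in YAP-5SA and 0.0896 in YAP-S127A. SE is the log2 fold change over the square root of F. CPM are TMM-scaled, and log2 CPM for profiles used a prior count of 2. Ratios on 1 to 3 counts are of pooled counts with exact 95% intervals, and those against 0 counts use a floor of 3 counts over the group; both cover counting error only. The code was tested on simulated counts.

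The members and lists were chosen with earlier results of these data known. Named beside the 9 members were up to 4 called genes of each list with the largest change in any comparison. For each member with at least 1 CPM in at least 3 libraries, the 2 genes with the nearest profiles were named too. These were sought among genes with an average log2 CPM of at least 0. Genes that the rule named and that enter the list counts, but whose values the text leaves out, are not reported here. Krt18, Hes1, Cd44, Itgav and Itgb1 were named after their values were seen. Alternatives were upper-quartile or RLE factors, limma-voom (limma 3.58.1), DESeq2 1.42.0, a strict filter (1 CPM in 3 libraries) or none, a fit of only the compared groups, the sample ID series as covariate or its second part dropped, libraries with a chi-square per degree of freedom under 10 summed, a minimum absolute log2 fold change of 1, and each library left out.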

Additional observations from a re-analysis of the deposited data

How the results depend on the processing

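Of 524 values of the 8 tested markers under 22 alternatives, 497 kept their direction and side of the threshold, 19 lost a call, 6 gained one and 2 reversed. The reversals were Sox9 in TAZ-S89A against YAP-S127A (-0.16 to 0.042 over the libraries left out, the last without TAZ-S89A replicate 3, adjusted p = 0.85 in edgeR) and Muc1 in YAP-5SA against YAP-S127A (-0.026 to 0.609, the first without YAP-5SA replicate 3, adjusted p = 0.96 in edgeR), neither called to begin with. In TAZ-S89A against YAP-5SA the number of lower markers was 1 in place of 2, from the loss of Sox4, with RLE or upper-quartile factors, DESeq2, limma-voom, no low-count filter, only the groups compared, near-identical libraries summed, or a minimum absolute log2 fold change of 1. It was 1 to 2 when each library was left out, and the number of higher markers was 4 to 5; in the other comparisons these counts did not change. In TAZ-S89A against YAP-S127A, 1 lower marker was left in place of 2 with the strict filter, which removed Prom1. In YAP-5SA against YAP-S127A that filter left 2 lower in place of 3. The minimum absolute log2 fold change of 1 also cut the higher markers. These fell from 5 to 4 in TAZ-S89A against YAP-5SA, where Cftr was lost. In YAP-5SA against YAP-S127A they fell from 3 to 2, where Sox4 was lost. The other marker counts in this paragraph include Prom1, as do the 524 values. Its calls against YAP-S127A were kept in 21 of 21 alternatives in both comparisons. As Prom1 passed the filter through that group alone, nothing is read from these. All genes called with that minimum were 6164 in TAZ-S89A against YAP-5SA, 5873 in TAZ-S89A against YAP-S127A and 6269 in YAP-5SA against YAP-S127A, against 10545, 10505 and 10062 without it. Without that minimum the counts ran from 9451 to 11154, from 9020 to 10920 and from 8778 to 10724 when each library was left out. Spp1 in YAP-5SA against YAP-S127A was also called by DESeq2 (adjusted p = 0.0289), limma-voom (adjusted p = 0.0256) and with the sample ID series as a covariate (adjusted p = 0.00347). Of 594 values of the named related genes, 587 were the same and 7, all of Notch2, lost a call. No paired analysis was made, because the labels name nothing that links libraries of different groups. Depth limited Epcam and Prom1, with at most 15 and 41 counts in a group.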

Other observations

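The genes around Spp1 also tended to be higher in TAZ-S89A. The 17 tested genes within 1 Mb of Spp1 had a median log2 fold change of 1.23 against YAP-5SA and 0.84 against YAP-S127A, where all 1077 other tested genes of chromosome 5 had medians of 0.35 and 0.26. The single values of these neighbours ran from -5.59 to 5.42 and from -6.48 to 6.97, and Spp1 itself stood at 3.76 and 3.07. Around Muc1, 77 tested genes had medians of 0.13 and 0.21, far from the 3.32 and 3.63 of Muc1.

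The 13 tested genes within 1 Mb of Aqp1 had a median log2 fold change of -0.90 in TAZ-S89A against YAP-5SA, opposite in sign to the 3.40 of Aqp1. The median was -0.58 in TAZ-S89A against YAP-S127A, where Aqp1 was at -3.01 and the lowest neighbour at -7.81, and -0.21 in YAP-5SA against YAP-S127A, where Aqp1 was at -6.42 and the lowest neighbour at -6.86. The region of Epcam on chromosome 17 had 23 tested neighbours with a median of 1.19 in TAZ-S89A against YAP-5SA, close to the 0.95 of the 844 other tested genes of chromosome 17, although Epcam itself had too few counts to test. The chromosome medians of the other markers in that comparison ran from -0.13 to 0.36.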
